A study of Danio rerio with 8 samples.

Results

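Mild prmt6 morphants were compared with control morphants in whole zebrafish embryos at 6 hours post fertilization (hpf). The comparison used 4 of the 8 arrays of the study, the single array of the mild subtype and the 3 arrays of control embryos, and covered the 15502 probe sets other than the array's own AFFX controls. Mild embryos had received 3 nl of a 0.3 mM morpholino (MO) against prmt6 at the 1-cell or 2-cell stage and had been assigned to the mild subtype. The severe subtype (3 arrays) and the normal subtype (1 array) had received the same prmt6 MO. Control embryos had received an equal amount of a control morpholino, which the labels call prmt6 cMO. Every embryo measured here had therefore been injected with a morpholino. The labels give no strain, no shape criteria for the subtypes, no number of embryos per sample and no clutch.

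Protein arginine methyltransferase 6, the product of prmt6, places methyl groups on arginines of histones and other proteins. At this stage gastrulation begins, and the embryo consists of deep cells, a thin outer epithelium called the enveloping layer, and the yolk syncytial layer, a nucleated sheet on the yolk surface. Nodal signals at the margin induce mesoderm and endoderm, BMP signals on the ventral side are opposed by antagonists from the dorsal organizer, and RNA laid down by the mother is being replaced by RNA from the embryo's own genes. Morpholinos act by blocking translation or splicing, and the amount of the targeted RNA may stay the same or change.

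Since mild embryos had 1 array, their own spread is unknown. A probe set was called higher or lower when its adjusted p in limma, with the spread taken from the 3 controls, was under 0.05 and the mild value also lay outside the range of the 3 controls. This assumes that a mild array would vary as a control array does. An exact permutation test of 1 array against 3 cannot go below p = 0.25 one-sided or 0.5 two-sided. The control arrays are labelled as biological replicates, with nothing on separate clutches, so p-values measure the spread between these arrays alone.

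Signals are log2 MAS5 values, and a background bound was set at log2 4.81, the 95th percentile of 17 negative control probe sets. The median signal was log2 6.47 on the mild array and between 6.58 and 6.75 on the controls, and 68.5% of probe sets lay above the bound on the mild array, against 70.31% to 70.99% on the controls. Over the 9301 probe sets tested, the median absolute difference was 0.43, 0.43 and 0.52 between the mild array and controls 1, 2 and 3. It was 0.11 between controls 1 and 2, and 0.29 and 0.30 between control 3 and these. Control 3 thus stood apart from the others, and the labels name no batch that could be tested. Hybridisation control probe sets averaged log2 11.23 on the mild array and 10.69 to 10.89 on the controls.

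The prmt6 transcript itself was higher in mild embryos. It read log2 11.13 in mild, 11.30, 11.10 and 11.41 in severe, 11.22 in normal and 9.67, 9.87 and 9.56 in control embryos. All 5 prmt6 MO arrays lay above all 3 controls. The mild difference was 1.43 on the log2 scale, or 2.70-fold (SE 0.18, limma adjusted p = 0.00791). As the amount of a targeted RNA need not fall, the value is no check on the strength of the knockdown. Of 8 tested members of the arginine methyltransferase list, which includes partner proteins of Prmt5, prmt6 was the only one called. The main histone arginine methyltransferase gene prmt1 read 13.56 in mild and 13.64, 13.59 and 13.48 in control embryos, and prmt5 read 11.01 in mild and 10.96, 10.92 and 10.46 in control embryos.

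Of the 9301 probe sets, 1587 were called (17.1%), 505 higher (5.43%) and 1082 lower (11.6%) in mild embryos. With 1 probe set per gene, 1068 of 6192 genes were called (17.2%), 393 higher (6.35%) and 675 lower (10.9%). Called falls were larger than called rises. Changes of at least 2-fold made up 244 of the rises and 856 of the falls, and changes of at least 8-fold made up 4 rises and 92 falls. The median called rise was 0.99 and the median called fall -1.51 on the log2 scale. By the mild value lying outside the control range alone, 7055 probe sets (75.9%) differed, 3623 higher (39%) and 3432 lower (36.9%), and 1542 (16.6%) also differed by 2-fold or more, 475 higher (5.11%) and 1067 lower (11.5%).

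**Figure D1:**
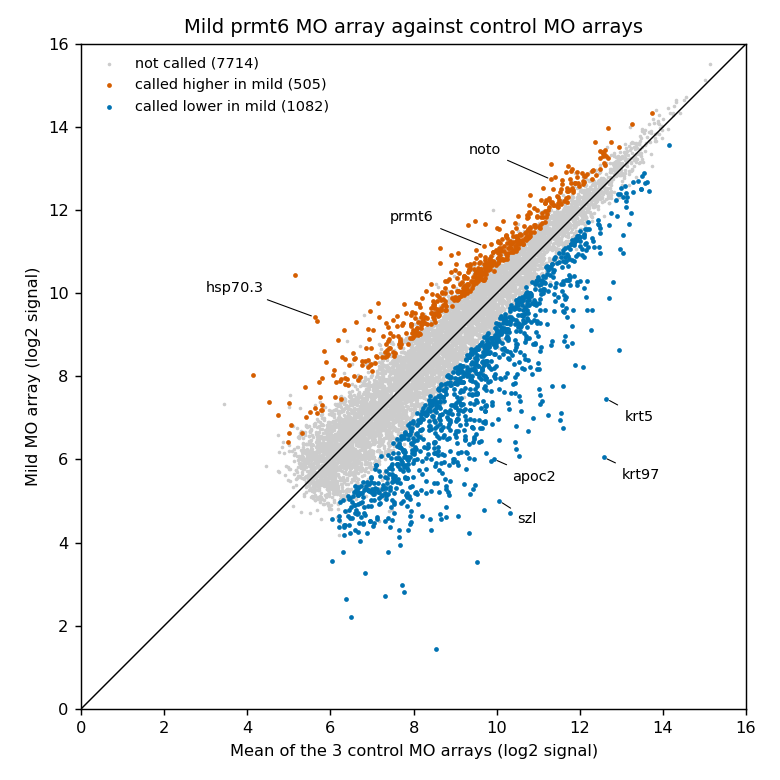
Signal of each tested probe set on the mild MO array (vertical axis, log2) against the mean of the 3 control MO arrays (horizontal axis, log2), with 505 probe sets called higher in orange and 1082 called lower in blue. The called falls reach further from the diagonal of equal signal than the called rises.

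The plot of mild against control signals shows this imbalance for the arrays as deposited, and it depended on their scaling. Centring each array on its median gave 778 higher and 936 lower probe sets, and scaling on the hybridisation controls gave 81 and 2111. These scalings put the median difference of all probe sets at 0.13 and -0.42, in place of 0.03. Without control 3, the spread came from the 2 controls that were nearly identical, and 5293 probe sets were called, 2475 higher and 2818 lower. Without control 1 the counts were 357 and 857, and without control 2 they were 519 and 1007.

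The largest rises included a heat shock gene, homeobox genes and transcripts best known from the egg. The heat-inducible chaperone gene hsp70.3 led, with log2 9.43 in mild, 9.77, 11.2 and 8.30 in severe, 7.65 in normal and 6.20, 5.46 and 5.2 in control embryos. Its rise was 3.80 on the log2 scale, or 14-fold (SE 0.45, limma adjusted p = 0.0063), from a probe set type that can also bind RNA of near-identical hsp70 copies. The growth-arrest gene gadd45aa read 9.30 in mild, 9.05, 9.24 and 9.96 in severe, 8.16 in normal and 6.70, 6.39 and 6.78 in control embryos, a 6.4-fold rise (SE 0.29 on the log2 scale, limma adjusted p = 0.00486). For both genes the mild value lay within the severe range and more than 2 log2 units above every control.

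Among the other leading rises were arhgap11a (log2 difference 2.64), the immediate-early gene fosab (2.62), and igfbp1a (2.46), which encodes an insulin-like growth factor binding protein. The eye-field homeobox gene rx3 (2.36) stood beside tbpl2 (2.36), a TATA-box binding factor gene of oocytes, the Polycomb gene bmi1a (2.27) and zar1l (2.09), an oocyte RNA-binding protein gene. The remaining ones were il13ra2 (2.19), the neural cell adhesion gene cntn5 (2.15) and the actin gene actc1a (2.15). The neural homeobox gene dbx1a read 7.08 in mild and 4.56, 5.12 and 4.54 in control embryos, and phlda2 read 7.38 in mild and 5.34, 4.28 and 3.94 in control embryos. Both rises were called, but only 1 control lay above the background bound for each gene, and 2 did for tbpl2, so no fold is given for dbx1a and phlda2, and that of tbpl2 is uncertain. The calls of igfbp1a, tbpl2 and cntn5 were lost with scaling on hybridisation controls, and that of phlda2 when all 8 arrays gave the spread. A second igfbp1a probe set read 1.12 higher without passing (limma adjusted p = 0.118), whereas a second fosab probe set was also called (1.65). The probe sets of the bromodomain gene brd2a disagreed, with 1 called higher (2.33), 1 called lower (-1.97) and 2 that did not pass (-1.71 and -0.88).

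Keratins headed the falls. The keratin gene krt97 read log2 6.05 in mild, 5.34, 9.07 and 1.92 in severe, 11.69 in normal and 12.40, 12.41 and 12.93 in control embryos. This was a fall of 6.53 on the log2 scale (SE 0.25, limma adjusted p = 0.00114), a call lost when all 8 arrays gave the spread. The keratin gene krt5 read 7.46 in mild, 6.11, 9.06 and 4.63 in severe, 12.11 in normal and 12.49, 12.56 and 12.88 in control embryos, or 36.3-fold lower in mild (SE 0.19 on the log2 scale, limma adjusted p = 0.00114). In both keratins the severe arrays were spread over more than 4 log2 units and the mild array lay among them. The keratin gene krt17 was under the background bound in mild embryos and at least 26.1-fold lower (limma adjusted p = 0.0056).

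Also among the largest falls were 3 patterning genes of the ventral and posterior embryo. The secreted BMP regulator gene szl read 5.0 in mild, 5.69, 7.55 and 4.07 in severe, 9.48 in normal and 9.63, 9.85 and 10.70 in control embryos, 33.3-fold lower in mild (SE 0.42 on the log2 scale, limma adjusted p = 0.00268). The posterior homeobox genes eve1 and cdx4 fell by 4.45 and 4.21, the thymosin gene tmsb1, whose product binds actin monomers, by 4.84, the calpain gene capn9 by 4.17 and the fucosyltransferase gene fut9b.1 by 4.21. Several more lay under the background bound in mild embryos and are given as bounds. The annexin genes anxa1c and anxa1b were at least 7.77-fold and 15.58-fold lower, pttg1ipa at least 29.5-fold, the lipid-droplet gene plin3 at least 7.47-fold, the nuclear receptor gene nr2f6b at least 5.66-fold and the RNA polymerase III factor gene gtf3c3 at least 3.19-fold.

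Among these, gtf3c3, nr2f6b and plin3 lay below all 3 severe arrays in mild embryos, although the severe values of nr2f6b and plin3 were themselves near the background bound. The gtf3c3 probe set read 2.2 in mild, 6.25, 5.83 and 4.69 in severe, 6.31 in normal and 6.38, 6.47 and 6.6 in control embryos. The mild array was the lowest, but severe 3 lay under the background bound as well. The difference of mild from severe embryos was not called for gtf3c3. Larger differences also occurred at probe sets with no gene symbol. The one with the largest rise read 10.44 in mild and 5.42, 5.31 and 4.69 in control embryos, and the one with the largest fall read 1.45 in mild and 8.49, 8.20 and 8.90 in control embryos.

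**Figure D2:**
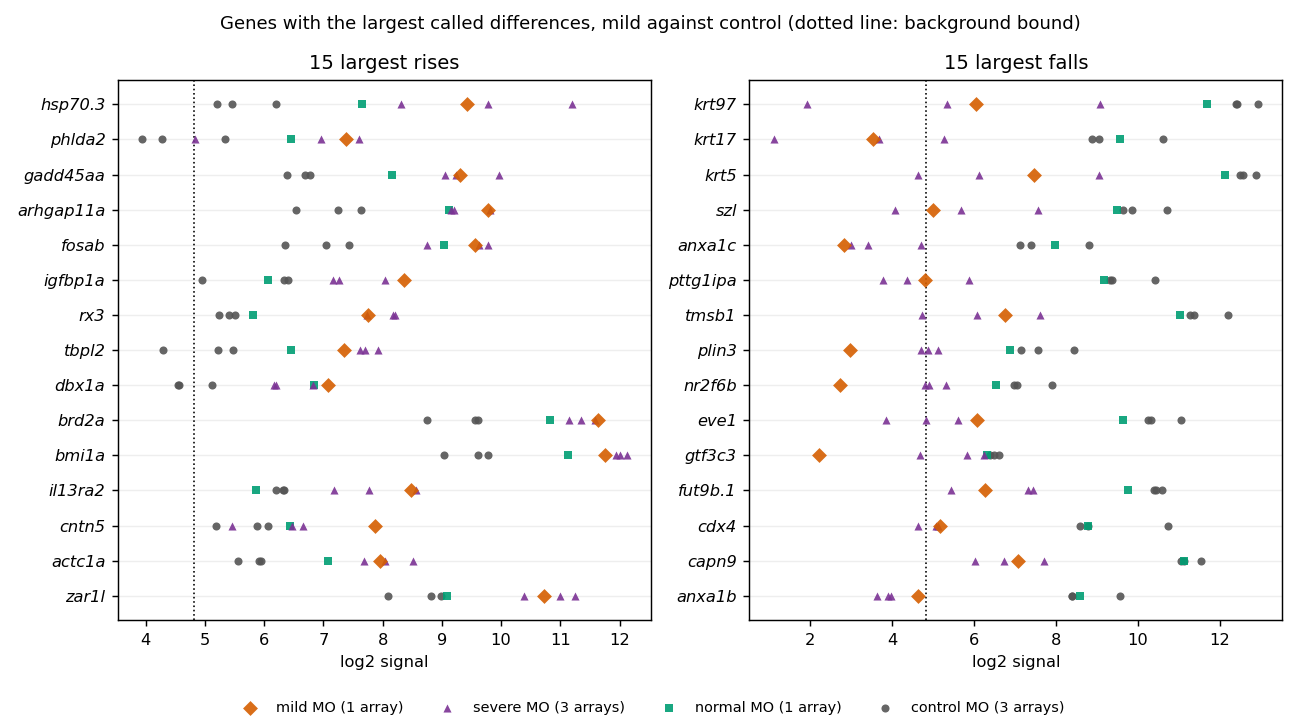
Log2 signal on each array for the 15 largest called rises (left) and the 15 largest called falls (right) of mild against control, with the background bound at log2 4.81 as a dotted line. In each row the mild array lies outside the 3 control arrays. For gtf3c3 it lies below the 3 severe arrays as well, of which severe 3 is also under the bound.

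Enveloping layer markers formed the list with the highest share of falls. Of 51 tested members, 28 fell and 1 rose, against 10.9% of all genes lower and 6.35% higher. The median difference was -0.98, against 0.08 over all tested genes. The fallers covered keratins, desmosome and cornified-layer genes and annexins. Desmosomal plakophilin genes pkp3a and pkp1b fell by 3.60 and 2.86, the plakin gene ppl by 3.51, evpla at least 12.22-fold, the desmosomal cadherin genes dsc2l and dsg2.1 by 3.01 and 1.78, and desmoplakin gene dspa by 1.79. The epithelial regulators grhl1, a transcription factor gene, and esrp1, a splicing factor gene, fell by 2.75 and 1.96. The single riser was anxa4 (1.16), of which a second probe set read 0.36 lower in mild without passing (limma adjusted p = 0.502).

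Other enveloping layer transcripts fell less than krt97 and krt5. The marker gene lye read log2 12.50 in mild, 10.63, 11.67 and 11.14 in severe, 13.46 in normal and 13.32, 13.29 and 13.82 in control embryos, 1.97-fold lower in mild (limma adjusted p = 0.038). The keratin gene krt4 read 10.28 in mild, 9.53, 10.25 and 8.30 in severe, 12.72 in normal and 12.66, 12.70 and 13.03 in control embryos, 5.73-fold lower in mild (limma adjusted p = 0.00216). In both, the mild array lay below every control and above every severe array, for krt4 by less than 0.1. The keratin gene krt18a.1 fell by 0.97 and krt8 by 1.28. The linear signals of the whole list summed to log2 15.96 in mild, 15.57 to 15.85 in severe, 16.79 in normal and 16.84 to 17.16 in control embryos. In RNA of whole embryos, fewer cells of a layer and less RNA per cell cannot be told apart. Without controls 1, 2 and 3 in turn, 27, 29 and 37 members were lower and 0, 1 and 7 higher. Of all 9301 probe sets, 857, 1007 and 2818 were then lower and 357, 519 and 2475 higher. Counts with a control left out in the lists that follow stand beside these totals. The members named here beyond the 4 largest calls of a list, and members named without a call, were chosen after their values were seen, also in the lists that follow.

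Yolk syncytial layer markers fell more often than they rose. Of 25 tested members, 7 fell (28%) and 2 rose (8%), against 10.9% and 6.35% of all genes. The list median was -0.57. The apolipoprotein gene apoc2 read log2 6.01 in mild, 2.16, 2.05 and 2.47 in severe, 8.95 in normal and 9.39, 9.49 and 10.93 in control embryos, 15.2-fold lower in mild (SE 0.61 on the log2 scale, limma adjusted p = 0.0126). The mild value lay between the severe values, all under the background bound, and the control values. The genes afp4 and apoc1 fell by 3.85 and 3.16, the zinc transporter gene slc39a5 at least 11.9-fold, the endoderm and yolk factor gene gata6 by 2.43 and the amino acid transporter gene slc7a8a by 1.78. The slc39a5 call was lost when all 8 arrays gave the spread.

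In contrast, mxtx2, a homeobox gene that specifies the yolk syncytial layer, read 10.92 in mild, 10.11, 10.58 and 11.11 in severe, 10.47 in normal and 8.87, 9.05 and 8.75 in control embryos. This was a 4.08-fold rise in mild (SE 0.20 on the log2 scale, limma adjusted p = 0.00375). The other riser was the retinoic acid hydroxylase gene cyp26a1 (1.17), which is also a member of the dorsal organizer and neural plate lists. Summed signals of the list were log2 15.70 in mild, 15.33 to 15.74 in severe, 16.16 in normal and 15.91 to 16.28 in control embryos. Leaving out controls 1, 2 and 3 in turn gave 8, 10 and 15 lower members, and 2, 2 and 5 higher ones.

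Many mesendoderm genes, which mark the margin, were lower in mild embryos. Of 39 tested members 14 fell (35.9%) and 1 rose (2.56%), against 10.9% and 6.35% of all genes. The list median was -0.61. Besides eve1, the peptide hormone gene apela fell by 3.42, the segmentation clock gene her7 by 3.30, the presomitic mesoderm gene msgn1 by 2.96 and the Notch ligand gene dlc by 2.93. The Brachyury gene tbxta read 10.40 in mild, 8.44, 9.19 and 9.79 in severe, 11.75 in normal and 11.66, 11.64 and 11.96 in control embryos, a fall of 1.36 (SE 0.17, limma adjusted p = 0.00786). That call was lost when all 8 arrays gave the spread. The Nodal effector gene foxh1 fell by 0.54. The segmentation gene mespaa was at least 5.09-fold lower in mild without passing (limma adjusted p = 0.0772). Under the filter on mean signal and so untested, her1 read 3.62 in mild and 8.51, 8.61 and 7.58 in control embryos. Also untested, aldh1a2 read 2.27 in mild and 7.31, 7.66 and 8.98 in control embryos. The untested bhlha9 read 5.38 in mild, above its controls at 4.32, 4.51 and 1.68.

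Among endoderm genes of the same list, gata6 fell and sox32, mixl1 and gata5 were not called. The endoderm specifier gene sox32 read 11.004 in mild, 8.11, 8.82 and 9.54 in severe, 11.99 in normal and 11.200, 11.34 and 12.18 in control embryos, so the mild array lay just under the controls and well above the severe arrays. The mesendoderm gene mixl1 read 8.41 in mild and 9.71, 9.83 and 8.88 in control embryos, and gata5 read 9.39 in mild and 10.03, 9.997 and 10.62 in control embryos. The probe sets of tbx16, a T-box gene of mesoderm, were both called lower but differed in size. The brighter one read 11.56 in mild, 10.52, 11.06 and 10.69 in severe and 12.44, 12.55 and 12.51 in control embryos, a fall of 0.94. The other read 8.29 in mild, 11.32, 11.10 and 9.13 in severe and 12.32, 12.40 and 10.94 in control embryos, a fall of 3.60. Without controls 1, 2 and 3 in turn, the list had 16, 19 and 24 lower members and 1, 2 and 5 higher ones.

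BMP and ventral genes included 13 falls (38.2%) and 1 rise among 34 tested members, with a median of -0.29, against 10.9% of all genes lower. The 13 count krt4 and eve1, named above with the enveloping layer and mesendoderm, and the antagonist gene chrd. The falls included a ligand, receptors and some targets. The ligand gene bmp4 read log2 4.59 in mild, 4.35, 5.70 and 4.14 in severe, 6.35 in normal and 7.14, 7.23 and 7.80 in control embryos, at least 5.97-fold lower in mild (limma adjusted p = 0.00857). The type I receptor genes bmpr1aa and bmpr1ab fell by 0.90 and 1.2. Of the same receptor type, bmpr1ba read 6.94 in mild and 5.93, 6.19 and 6.10 in control embryos without passing (limma adjusted p = 0.117). The receptor gene acvr1l differed by -0.04 and was not called. The target genes id3 and id2a fell by 2.92 and 1.08, whereas the target id1 read 12.85 in mild and 12.82, 12.90 and 12.88 in control embryos and did not pass (limma adjusted p = 0.938). The ventral repressor gene ved read 9.92 in mild, 8.77, 9.67 and 8.96 in severe, 11.66 in normal and 11.91, 12.01 and 12.55 in control embryos, a fall of 2.24 (SE 0.27, limma adjusted p = 0.00613). The pseudoreceptor gene bambia fell by 1.69 and the epidermal factor gene tfap2c by 1.94.

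The antagonist gene chrd fell as well. It read 8.04 in mild, 7.26, 7.47 and 7.33 in severe, 9.0 in normal and 9.28, 9.30 and 9.38 in control embryos, a fall of 1.28 (SE 0.19, limma adjusted p = 0.0109). The ligand gene bmp2b was level, with 9.98 in mild and 9.90, 10.02 and 10.11 in control embryos, while bmp7a read 6.52 in mild and 7.60, 7.65 and 7.40 in control embryos without passing (limma adjusted p = 0.0541). The single riser was foxi1, a forkhead gene of ventral ectoderm, with 10.22 in mild, 9.25, 9.67 and 10.37 in severe, 8.99 in normal and 8.46, 7.93 and 8.84 in control embryos (limma adjusted p = 0.0258). Without controls 1, 2 and 3 in turn, 12, 13 and 18 members were lower and 2, 2 and 7 higher.

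The dorsal organizer list differed little in total. Of 30 tested members 4 fell (13.3%) and 2 rose (6.67%), near the 10.9% and 6.35% of all genes, and the median was -0.02. Those falling were chrd, tbxta, lhx1a (-1.85) and insb (-1.74). The rises were cyp26a1 and the notochord homeobox gene noto, which read 12.74 in mild, 11.33, 11.57 and 12.47 in severe, 12.11 in normal and 11.42, 11.39 and 11.13 in control embryos, 2.69-fold higher in mild (SE 0.16 on the log2 scale, limma adjusted p = 0.0056). The mild value of noto was above all 7 other arrays. Scaling on hybridisation controls left 2 members called higher, noto with a limma adjusted p of 0.0213.

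The organizer genes gsc, foxa3 and lft1, chosen after their values were seen, lay within 0.3 of the control mean in mild embryos. The homeobox gene gsc read log2 10.68 in mild, 8.76, 9.61 and 9.91 in severe, 11.21 in normal and 10.61, 10.65 and 10.90 in control embryos, and foxa3 read 11.13 in mild, 9.17, 9.63 and 10.86 in severe, 11.06 in normal and 10.84, 10.90 and 10.85 in control embryos. The Nodal antagonist gene lft1 read 9.12 in mild, 7.68, 8.45 and 8.69 in severe, 9.31 in normal and 9.33, 9.22 and 8.81 in control embryos. For gsc and lft1 the mild value lay inside the control range. The Wnt antagonist gene dkk1b, with 8.81 in mild and 8.91, 8.90 and 9.26 in control embryos, and the Nodal ligand genes ndr1 (8.26 in mild and 7.34, 7.45 and 7.05 in control embryos) and ndr2 (6.85 in mild and 6.83, 6.97 and 6.49 in control embryos) did not pass. None of these p-values shows that the levels were equal. Without controls 1, 2 and 3 in turn, 4, 5 and 9 members were lower and 2, 2 and 9 higher.

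**Figure D3:**
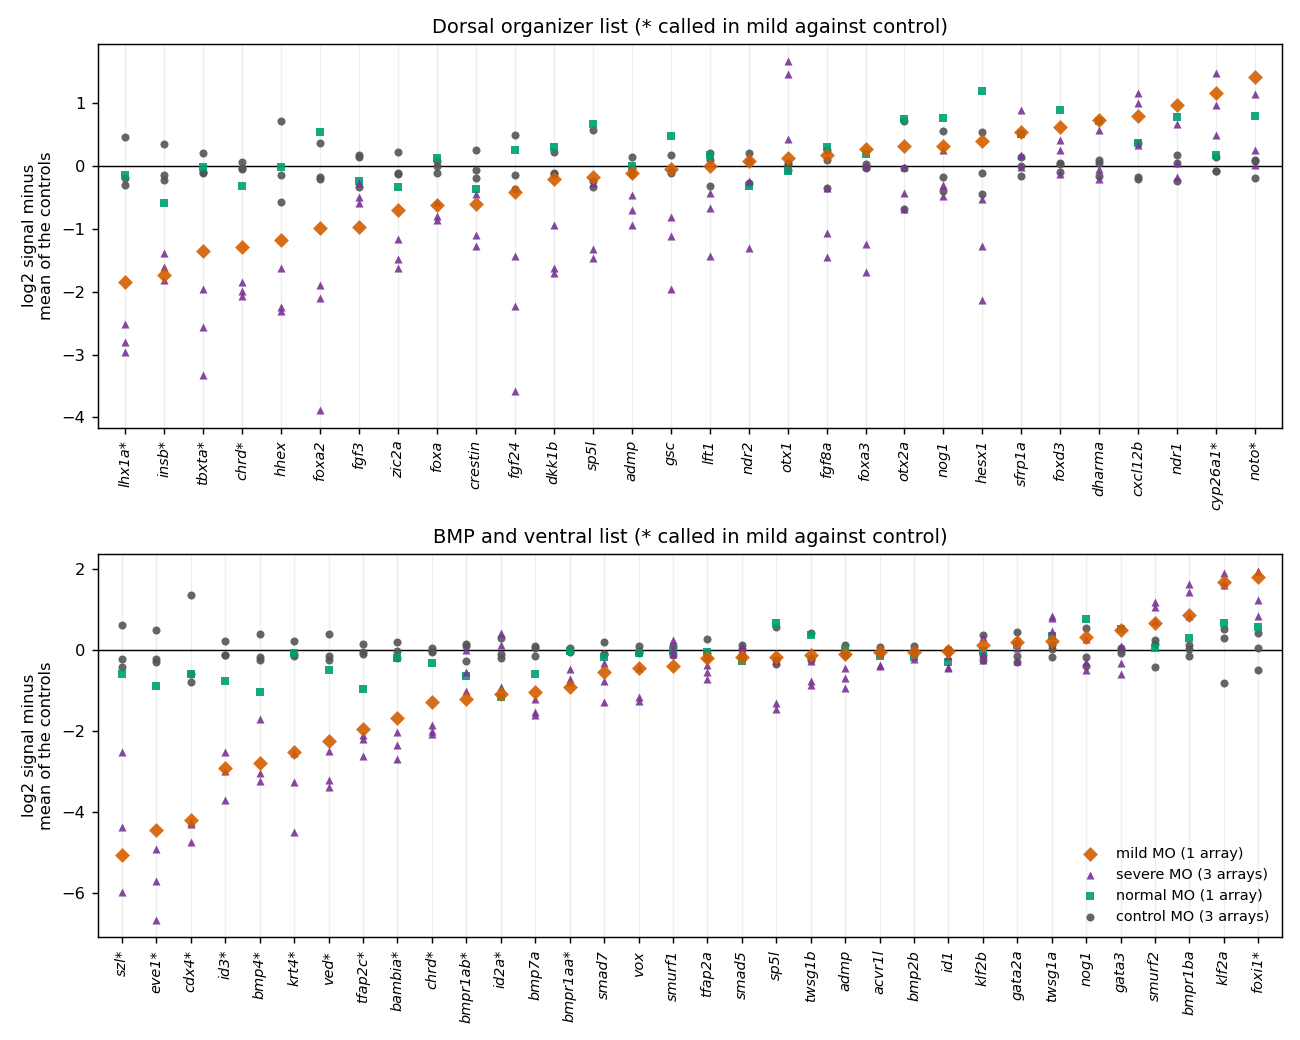
Log2 signal minus the mean of the 3 controls on each array, for the 30 tested dorsal organizer genes (top) and the 34 tested BMP and ventral genes (bottom), ordered by the mild difference. At the left of the lower panel szl, eve1 and cdx4 lie more than 4 log2 units under the controls in mild, while gsc, lft1 and foxa3 lie within 0.3 of the control mean in the upper panel.

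Among 25 tested neural plate genes, 4 rose (16%) and 3 fell (12%), against 6.35% and 10.9% of all genes. The list median was 0.40. The rises were rx3, dbx1a, the Iroquois gene irx7 (1.35) and cyp26a1. The SoxB1 gene sox2 fell by 2.76 and sox3 by 0.84, and the retinoic acid-binding protein gene crabp2b by 2.67. The sox2 probe set read 6.48 in mild, 4.36, 5.15 and 2.42 in severe, 9.40 in normal and 8.81, 8.71 and 10.20 in control embryos, and its call was lost when all 8 arrays gave the spread. The neural list median turned to -0.05 with scaling on hybridisation controls, which put the median of all probe sets at -0.42. Leaving out controls 1, 2 and 3 in turn gave 5, 8 and 10 higher members, and 3, 3 and 7 lower ones. Of 17 blood and vessel markers on the array 2 were tested, of which drl fell by 1.85. Below the filter on mean signal over 8 arrays, lmo2 read 4.02 in mild and 7.08, 6.87 and 6.96 in control embryos. The untested klf1 read 4.56 in mild, under the background bound, and 2.49, 2.76 and 2.53 in control embryos. Of 6 tested muscle markers, actc1a rose and none fell.

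Genes of FGF signalling and of cell movement held further falls, while Wnt genes fell at about the share of all genes. In the FGF list 3 of 16 fell (18.8%) and 1 rose (6.25%), against 10.9% and 6.35% of all genes (list median -0.38). The targets etv4 and spred1 fell by 1.28 and 1.89, whereas etv5a rose by 0.94, a call lost with scaling on hybridisation controls and not shared by its second probe set (-0.07). Wnt genes had 4 of 34 lower, a share of 11.8% against 10.9% of all genes, and 0 higher (median -0.18). These were cdx4, the Wnt target sp5a (-1.68), a call lost when all 8 arrays gave the spread, the planar cell polarity cadherin gene celsr1a (-1.60) and ctnnb1, which encodes beta-catenin (-0.47). The ctnnb1 call was lost without control 1 (limma adjusted p = 0.210) and without control 2 (limma adjusted p = 0.158), and both it and the celsr1a call were lost with median centring. Without control 3, the FGF list had 7 lower and 4 higher members and the Wnt list 12 lower and 7 higher. Without control 1 the FGF list had 2 higher members, as it did without control 2.

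In the list of adhesion and movement genes, 11 of 44 fell (25%) and 2 rose (4.55%), against 10.9% and 6.35% of all genes. The list median was -0.13. The laminin gene lamb1a fell by 2.95, the ephrin ligand gene efnb2b by 2.24, the small GTPase genes rhoaa and rhoab by 2.16 and 1.78, and the neural cadherin gene cdh2 by 1.63. The cadherin gene cdh1 of the deep cells and enveloping layer read 12.40 in mild and 12.55, 12.64 and 12.47 in control embryos without passing (limma adjusted p = 0.446). Actin cytoskeleton genes had 7 of 41 lower and 5 higher. Falls there included tmsb1, the actin-bundling gene lcp1 (-3.67, a call lost when all 8 arrays gave the spread) and tagln2 (-2.61), and rises included arhgap11a, actc1a and the actin-disassembly gene wdr1 (0.94). Without control 3, 19 adhesion genes were lower and 12 higher, and 13 actin genes were lower and 11 higher. Without control 1, and again without control 2, 1 adhesion gene and 3 actin genes were higher.

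The signals do not separate maternal from zygotic RNA of a gene. In the early zygotic list (median -0.18), 13 of 49 genes fell (26.5%) and 2 rose (4.08%), against 10.9% and 6.35% of all genes. Those named above included apela, her7, dlc, id3, ved and sox2, since the lists share members, and sox11a (0.74, on 1 of 3 probe sets) and irx7 rose. The pluripotency genes nanog and pou5f3 did not pass. The first read 14.001 in mild and 13.48, 13.38 and 12.78 in control embryos, and the second 13.66 in mild and 13.80, 13.76 and 13.95 in control embryos. Leaving out controls 1, 2 and 3 in turn, 13, 14 and 25 members were lower and 5, 8 and 15 higher.

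Maternal transcripts rose more often than they fell. Of 62 tested members, 12 rose (19.4%) and 3 fell (4.84%), against 6.35% and 10.9% of all genes. The list median was 0.43, against 0.08 over all tested genes. After tbpl2, bmi1a and zar1l came the meiotic kinase gene mos (1.86), the deadenylase gene cnot7 (1.74), the germ-cell RNA-binding gene dazl (1.63) and the polyadenylation factor gene cpeb1b (1.48). The germ-plasm gene dnd1 read log2 10.67 in mild, 10.82, 10.86 and 11.06 in severe, 10.33 in normal and 9.37, 9.38 and 9.13 in control embryos, a 2.60-fold rise in mild (SE 0.19 on the log2 scale, limma adjusted p = 0.00924). A second dnd1 probe set differed by 0.06 and did not pass. The falls were hsd17b12a (-1.04), the claudin gene cldng (-1.02, with another of its probe sets 2.08 higher without passing) and the germ-cell helicase gene ddx4 (-0.85). Among 19 tested germ cell markers, which overlap this list, 5 rose (26.3%) and 1 fell (5.26%), with a median of 0.34. Without control 3 there were 8 and 1.

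The calls of tbpl2, mos, dazl, asz1 and grip2a were lost with scaling on hybridisation controls, and that of grip2a also without control 1 (limma adjusted p = 0.0893) or control 2 (limma adjusted p = 0.0588). Under that scaling 5 maternal genes were higher and 7 lower, and the maternal and germ cell medians turned to -0.02 and -0.11. The same scaling put the median of all probe sets at -0.42, with 81 of 9301 called higher and 2111 lower. Both list medians thus stayed above that of all probe sets. With controls 1, 2 and 3 left out in turn, 16, 19 and 34 maternal genes were higher, and without control 3 there were 9 lower. The btg4 transcript, an adaptor for deadenylation, read 10.15 in mild, 11.92, 11.87 and 10.29 in severe and 9.18, 8.87 and 7.73 in control embryos and did not pass (limma adjusted p = 0.107).

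**Figure D4:**
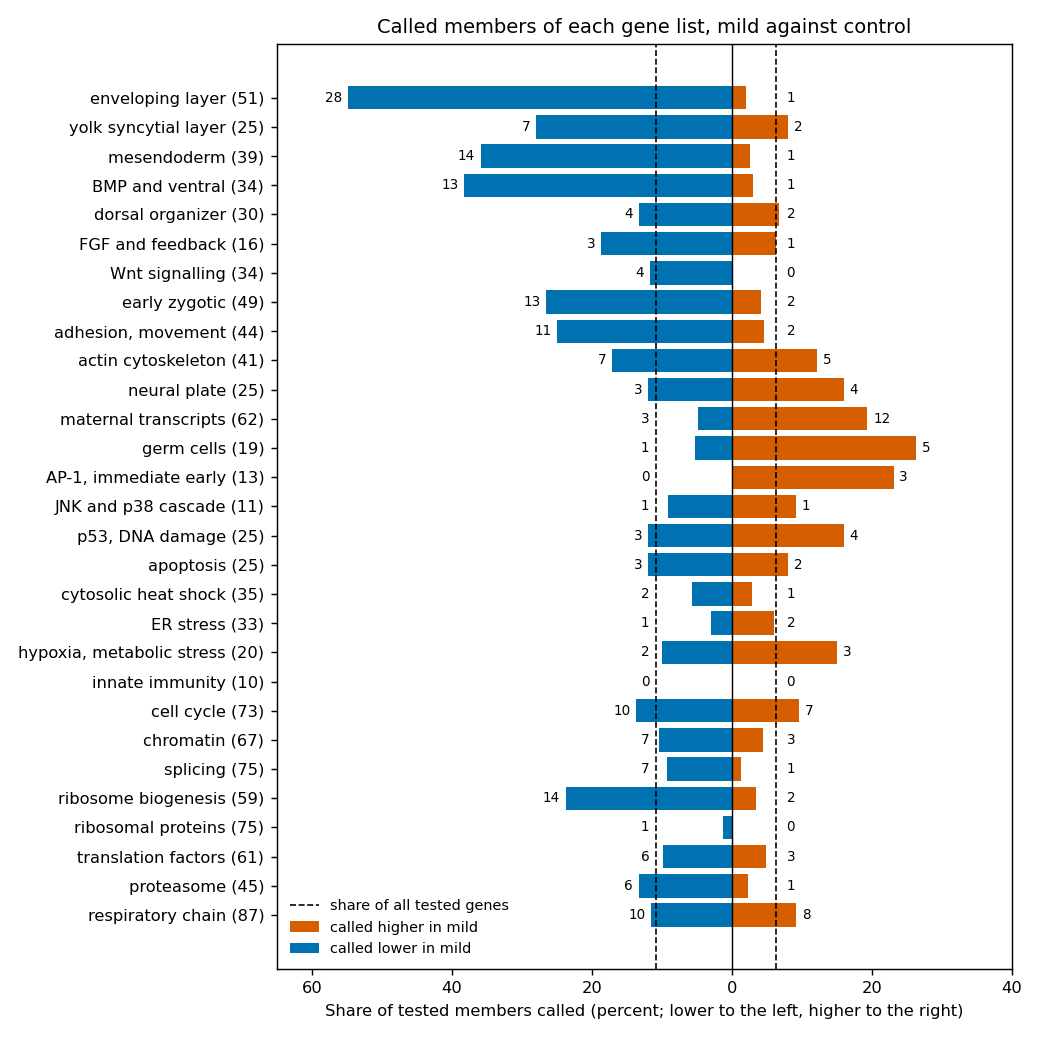
Share of the tested members of each gene list (number in brackets) called lower in mild, to the left, and higher in mild, to the right, in percent, with the number of called members beside each bar. Dashed lines mark the shares among all tested genes, 10.9% lower and 6.35% higher, and enveloping layer markers reach furthest with 28 of 51 lower.

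Both rises and falls were called among stress genes, beside 6.35% of all genes higher and 10.9% lower. Of 4 tested gadd45 genes, gadd45aa and gadd45bb rose. The gadd45bb gene read log2 12.51 in mild, 11.79, 12 and 12.75 in severe, 12.05 in normal and 11.32, 11.35 and 11.38 in control embryos, a 2.24-fold rise (SE 0.12 on the log2 scale, limma adjusted p = 0.0046). Gadd45 proteins bind the kinase Map3k4 upstream of p38 and JNK in mammals. In the JNK and p38 list, 1 of 11 rose, the phosphatase gene dusp1 (0.61), and 1 fell, the p38 gene mapk14a (-0.73). The dusp1 call was lost without control 1 or 2 (limma adjusted p = 0.137 and 0.0903), as was that of mapk14a (limma adjusted p = 0.0842 and 0.0701). The dusp1 call was also lost with scaling on hybridisation controls and when all 8 arrays gave the spread. The map3k4 transcript read 10.06 in mild and 9.88, 9.87 and 9.41 in control embryos and did not pass. Without control 3, 3 gadd45 genes were higher and 1 lower, and in the JNK and p38 list 5 were higher and 4 lower.

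AP-1 and immediate-early genes had 3 of 13 members higher (23.1%) and 0 lower, against 6.35% and 10.9% of all genes, with a median of 0.75. They were fosab, junbb (1.61) and jun (1.23). The junbb gene read 7.96 in mild, 6.21, 6.87 and 7.29 in severe, 7.78 in normal and 6.44, 6.12 and 6.52 in control embryos, so that the mild array was highest. The calls of junbb and jun were lost with scaling on hybridisation controls, and a second jun probe set (0.80) did not pass. With controls 1, 2 and 3 left out in turn, 5, 5 and 7 members were higher, and 3 were lower without control 3.

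Genes of the p53 response and of DNA damage had 4 rises (16%) and 3 falls (12%) among 25, against 6.35% and 10.9% of all genes. The pro-apoptotic gene bbc3 read log2 9.20 in mild, 9.04, 9.75 and 10.08 in severe, 8.55 in normal and 7.65, 7.13 and 7.37 in control embryos, a 3.53-fold rise (SE 0.29 on the log2 scale, limma adjusted p = 0.014). The repair gene ddb2 and the histone gene h2ax rose by 1.22 and 1.16, ddb2 not with scaling on hybridisation controls. The stress-response genes sesn3 and rps27l fell by 1.89 and 1.44. The p53 inhibitor gene mdm2, itself a p53 target, read 9.93 in mild and 9.57, 9.56 and 9.61 in control embryos without passing (limma adjusted p = 0.194). Of 25 apoptosis genes, 8% rose and 12% fell, near the shares of all genes. Here bbc3 and bokb (1.51) rose and diabloa (-1.77), bcl2l10 (-1.68) and cycsb (-1.06) fell. Without control 3, 9 p53 genes were higher and 5 lower, and 7 apoptosis genes were higher and 9 lower. Of all 9301 probe sets, 2475 were then higher and 2818 lower.

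Besides hsp70.3, no tested gene of 35 in the cytosolic heat shock list was called higher. In the whole list 15 lay above all 3 controls, against 42.3% of all genes. The co-chaperone genes chordc1b and ptges3b fell by 1.57 and 0.78. The ptges3b call was lost without control 1 (limma adjusted p = 0.0756) and when all 8 arrays gave the spread. The inducible chaperone gene hsp90aa1.2 read 9.49 in mild, 9.71, 11.40 and 7.79 in severe, 8.44 in normal and 8.07, 6.27 and 6.06 in control embryos and did not pass (limma adjusted p = 0.0702). Of 33 endoplasmic reticulum stress genes, 6.06% rose and 3.03% fell, against 6.35% and 10.9% of all genes. The chaperone genes hsp90b1 (0.99) and calr3a (0.84) rose and the transcription factor gene xbp1 (-0.76) fell. In this list 25 lay above all 3 controls, against 42.3% of all genes. The median of this list was 0.41 and turned to -0.03 with scaling on hybridisation controls, which also ended the calls of hsp90b1 and calr3a. That scaling put the median of all probe sets at -0.42. Median centring ended the xbp1 call. Of 20 hypoxia and metabolic stress genes, igfbp1a, sod2 (0.79) and prdx1 (0.78) rose and nqo1 (-1.92) and the glycolytic regulator gene pfkfb4b (-1.74) fell. With control 1, 2 or 3 left out, 4, 4 and 12 heat shock and 3, 5 and 17 endoplasmic reticulum genes were higher, and 1, 3 and 10 and 1, 1 and 3 were lower. The hypoxia list had 7 higher and 6 lower members without control 3, and 4 lower without control 2. Of 10 innate immunity genes 0 were called in limma, and without control 3 there were 3 higher and 1 lower.

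More genes of ribosome assembly fell than rose, whereas ribosomal protein genes showed few calls. Of 59 tested ribosome biogenesis genes, 14 fell (23.7%) and 2 rose (3.39%), against 10.9% and 6.35% of all genes (list median -0.35). The rRNA methyltransferase gene nop2 read log2 7.61 in mild, 7.02, 7.71 and 7.19 in severe, 9.71 in normal and 10.30, 10.13 and 10.57 in control embryos, 6.61-fold lower in mild (SE 0.22 on the log2 scale, limma adjusted p = 0.0025). The nucleolar genes mybbp1a, gnl3, gnl3l and surf6 fell by 2.58, 2.18, 2.05 and 1.91, and the RNA polymerase I subunit gene polr1b by 1.73. The most abundant nucleolar transcripts did not pass, with fbl at 12.50 in mild and 12.63, 12.59 and 12.59 in control embryos and ncl at 12.96 in mild and 13.28, 13.23 and 13.26 in control embryos. Of 75 ribosomal protein genes 1 fell, the variant gene rps27l, and 0 rose (median 0.07). Without control 3 the biogenesis list had 32 lower and 12 higher members, and the ribosomal protein list 10 lower and 44 higher. Without controls 1 and 2, 2 and 4 ribosomal protein genes were lower. Control 3 was the highest of the controls for all 75 of them.

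Of 87 respiratory chain genes 10 fell (11.5%) and 8 rose (9.2%), against 10.9% and 6.35% of all genes. Complex I genes, with symbols that begin with nduf, had 7 falls and 1 rise among 38 tested, with a median of 0.15. The largest fall was that of the subunit gene ndufv1, which read 6.79 in mild, 7.59, 7.25 and 7.13 in severe, 8.41 in normal and 10.35, 10.56 and 10.49 in control embryos, 12.8-fold lower in mild (SE 0.18 on the log2 scale, limma adjusted p = 0.00145). Also lower were ndufs6 (-1.84), ndufa2 (-1.77) and the cytochrome oxidase assembly gene cox10 (-1.95). The rises were led by the copper chaperone gene cox17 (1.5) and the ATP synthase gene atp5mea (1.25). With scaling on hybridisation controls 1 was higher and 18 lower, and without control 3 there were 44 and 21. Of all 9301 probe sets, 81 were higher and 2111 lower with that scaling, and 2475 and 2818 without control 3.

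In the share of falls, the remaining cell machinery lists, like the respiratory chain list, lay nearer all genes than ribosome biogenesis did. Of 73 cell cycle genes 10 fell (13.7%) and 7 rose (9.59%), against 10.9% and 6.35% of all genes. The topoisomerase gene top2a fell by 1.96 although a second probe set read 0.31 higher without passing, the mitotic cyclin gene ccnb3 fell by 1.77 in agreement of 4 probe sets, and the kinase inhibitor gene cdkn1ca rose by 0.77. Of 45 proteasome genes 6 fell (13.3%), led by psmb6 (-1.86), and psmd3 rose (0.89). Of 75 splicing genes 7 fell (9.33%) and 1 rose (1.33%). Of 61 translation factors 6 fell (9.84%) and 3 rose (4.92%), and of 67 chromatin genes 7 fell (10.4%) and 3 rose (4.48%). Their shares of falls were near that of all genes. Among these, the cap-binding gene eif4ea fell by 2.32 and eif6 rose by 1.35, and hnrnpua fell by 2.04. Of 8 cytosolic chaperonin genes cct8 rose (0.82) and cct4 fell (-0.79). The cct4 call was lost without control 1 (limma adjusted p = 0.0518) and with median centring. Without control 3, higher and lower counts were 20 and 26 for the cell cycle, 18 and 12 for the proteasome, 26 and 24 for splicing, 21 and 19 for translation and 17 and 26 for chromatin. Over all 9301 probe sets these counts were 2475 and 2818.

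Mild embryos were then set beside severe embryos, without the control arrays, to describe where the subtypes differed. With the spread taken from the 3 severe arrays, 0 of 9301 probe sets were called (0%) in limma, with 628 at an unadjusted p under 0.05. Severe array 3 lay close to the mild array, with a median absolute difference of 0.21, against 0.47 and 0.38 for severe arrays 1 and 2. Without severe 3 the count was 1840, without severe 2 it was 3, and with scaling on hybridisation controls it was 7. The following positions are therefore descriptions. Over all tested genes, the mild value lay above all 3 severe arrays in 26.2% and below all 3 in 36.9%.

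Members of the dorsal organizer, yolk syncytial, mesendoderm and early zygotic lists mostly lay above all 3 severe arrays. This held for 21 of 30 dorsal organizer, 17 of 25 yolk syncytial, 25 of 39 mesendoderm and 32 of 49 early zygotic genes. Their median differences from the severe mean were 0.70, 0.70, 0.55 and 0.50, against -0.08 over all genes. With scaling on hybridisation controls these were 0.54, 0.53, 0.38 and 0.33, against -0.25. By these counts and medians, the enveloping layer was closer to the severe arrays (25 of 51 members above all 3, median 0.36). So was the BMP and ventral list (16 of 34, median 0.24). The order depended on the measure. As the median difference from the control mean, the enveloping layer was -0.98 in mild and -2.67, -1.81 and -1.87 in severe embryos. The yolk syncytial list was -0.57 in mild and -1.45, -1.31 and -0.55 in severe embryos, within the severe range. Among the BMP genes, chrd and bambia lay above all 3 severe arrays in mild embryos and szl, id3 and bmp4 lay within their range. A mild level above all 3 severe arrays was not particular to patterning lists. As differences from the control mean, the proteasome median was 0.04 in mild and -0.22, -0.20 and -0.01 in severe embryos. The splicing median was 0.03 in mild and -0.39, -0.27 and -0.05 in severe embryos. That of the respiratory chain was 0.17 in mild and -0.09, -0.07 and 0.06 in severe embryos. The mild medians of the cell cycle and chromatin lists lay within the severe range.

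The 2 groups of ribosome genes took different places. Of 75 ribosomal protein genes, 68 were higher in mild than in all 3 severe arrays and 0 lower, with a median difference of 0.61. Of 59 ribosome biogenesis genes 16 were above and 12 below, with a median of -0.01. With scaling on hybridisation controls the counts above all 3 severe arrays were 70 and 8. As differences from the control mean, the ribosomal protein medians were 0.07 in mild, -0.85, -0.57 and -0.16 in severe and 0.41 in normal embryos. On controls 1, 2 and 3 they were -0.16, -0.22 and 0.38, so arrays of the same treatment also differed in this list. The biogenesis medians were -0.35 in mild, -0.36, -0.34 and -0.38 in severe, -0.23 in normal and -0.02, -0.02 and 0.05 in control embryos. The members of these lists vary together, so their counts are not independent.

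Maternal transcripts stood on the other side, with 31 of 62 below all 3 severe arrays in mild embryos and 8 above, and a median of -0.27. Endoplasmic reticulum stress genes were alike, with 16 of 33 below and 6 above. AP-1 and immediate-early genes were above all 3 severe arrays in 7 of 13 cases and below in 1. On the normal array, which shares the controls with the mild comparison, the medians of difference from the control mean were -0.11 for the enveloping layer, 0.05 for maternal transcripts and 0.35 for AP-1 genes, against -0.98, 0.43 and 0.75 on the mild array.

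**Figure D5:**
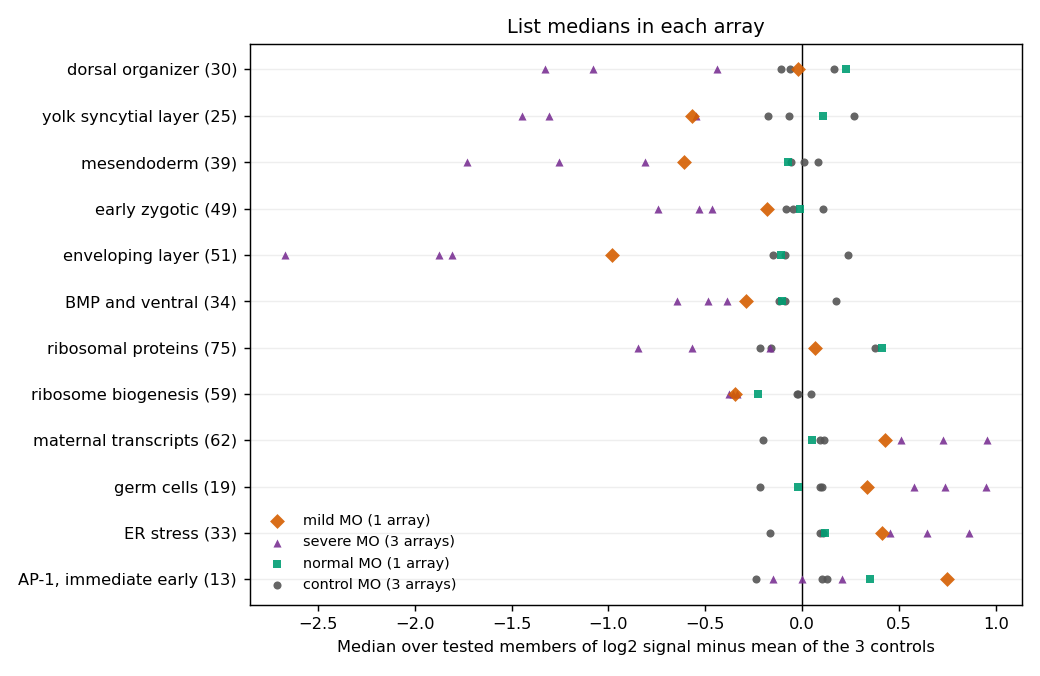
Median over the tested members of 12 lists (number in brackets) of the log2 signal minus the mean of the 3 controls, for each array. The mild array lies between the severe arrays and the controls for the enveloping layer and mesendoderm, with the controls for the dorsal organizer, beside the severe arrays for ribosome biogenesis, and beyond every other array for AP-1 genes.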

How the data were processed

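Whole-embryo RNA was hybridised to Affymetrix zebrafish arrays. The authors deposited log2 values, 1 per probe set and array, made with MAS5 per the submitters' processing notes, which give no version; the image software is not given in the sources used here. In the deposited values the linear signals of every array average 500 once 2% are trimmed at each end. No detection calls were used here. Gene names are those of the platform annotation, 10679 of them brought up to date by Entrez number. Of 15502 probe sets, 10795 had 1 symbol, 135 several and 4572 none, and none was named from several. The tests kept probe sets whose mean over 8 arrays reached log2 5.585, the 40th percentile, which left 9301 probe sets and 6192 genes, each gene by its probe set of highest mean. A gene bright in controls but dim on the mild and severe arrays could fall under this filter and go untested. The counts and the largest falls leave such genes out.

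The mild array and 3 controls were fitted in limma 3.58.1 (lmFit, eBayes with trend, R 4.3.3, 2 residual degrees of freedom) with Benjamini-Hochberg adjustment, and mild and severe arrays likewise. The steps were tested on simulated data. Lists described cell layers, signalling, stress and cell machinery. The comparison and the lists were chosen with earlier results of these data known. Named were prmt6, gadd45aa, the 15 largest rises and falls among called probe sets with a symbol that is not clone-style (1 per gene), and up to 4 called members with the largest differences per list, and the 6 largest each way called against the severe arrays, of which there were none. Where every array of the dimmer group lay below the background bound, the fold against that bound is printed as a minimum. Figures were drawn with matplotlib 3.10.9. The number of arrays limits the precision. Alternatives were the scaling of arrays, the filter, the variance model, the arrays in the fit, a pseudocount of 16, the call rule and each replicate left out. The positions beside severe arrays under other scalings and the symbol families were added after the data were seen.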

Additional observations from a re-analysis of the deposited data

How the results depend on the processing

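No paired analysis was possible because the mild array carries no replicate number. Of 113 named probe sets called against the controls, 75 stayed called under all 12 alternative limma fits, 38 lost the call in at least 1 and 0 changed direction. Most losses came with no intensity trend (24), scaling on hybridisation controls (19), all 8 arrays in the fit (12), no filter (7) and control 1 left out (7). With no intensity trend the calls of cdx4, msgn1, sox2, igfbp1a, tbpl2, mapk14a, dusp1, ddb2, bokb, ptges3b, hsp90b1, calr3a, xbp1, sod2, mos, etv5a, celsr1a, ctnnb1, grip2a, cct8, cct4 and psmb6 were lost, with cdca9 and snrpf. With no filter those of igfbp1a, tbpl2, mapk14a, celsr1a, ctnnb1 and grip2a were lost, with mcm6. Scaling on hybridisation controls also ended those of bokb, sod2 and cct8, beside those named with their genes. Leaving out control 1, 2 or 3 ended 7, 5 and 0 of these calls. The total against the controls ranged between 1214 and 5293 probe sets with 1 control left out, the higher ones between 357 and 2475 and the lower ones between 857 and 2818. Higher probe sets numbered 778 with median centring, 81 with scaling on hybridisation controls and 251 with no intensity trend. Lower probe sets numbered 2111 with scaling on hybridisation controls and 705 with a filter at the 60th percentile, which tests fewer probe sets. For the remaining differences the cause was not tested. Against the severe arrays, scaling on hybridisation controls gave 7 calls, and leaving out 1 severe array gave 0 to 1840. Without control 3 or severe 3, the spread comes from the nearest pair of arrays and 1 residual degree of freedom. The mild subtype has 1 array, so its own spread is unknown and its clutch cannot be told apart from the subtype, and 69 probe sets called lower were under the background bound in mild embryos, where their size is a minimum.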

Other observations

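Gene groups outside the lists were formed from shared symbol stems with 6 or more tested genes and chosen after their values were seen, so their counts are descriptions beside 6.35% of all genes higher and 10.9% lower. Of 37 mitochondrial large-subunit ribosomal protein genes (stem mrpl), 8 fell and 2 rose in mild embryos, with a median of -0.19. Of 21 small-subunit genes (mrps), 1 fell and 2 rose, with a median of 0.25. Genes of mitochondrial protein import (timm) had 3 rises and 0 falls among 10, and genes with the stem chch 3 rises and 1 fall among 7.

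Of 6 hmgn genes, which encode small nucleosome-binding proteins, 3 fell and 0 rose, with a median of -1.25 and the lowest at -2.58. Of 20 RNA polymerase subunit and related genes (polr), 5 fell and 1 rose, with a median of -0.52. Solute carriers (slc) had 14 falls and 3 rises among 84, and genes with the stem rab had 5 rises and 1 fall among 32.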
